A study of Mus musculus with 24 samples.

Results

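Heat shock proteins are chaperones, proteins that bind other proteins as they fold, keep them from clumping and help to refold or clear them. The 10 genes described here are mouse chaperone genes, chosen by symbol from the 36333 genes of the expression table, and all 10 passed the minimum of 0.5 TPM (a transcript level scaled by gene length and library total). They were set out as 7 stress-induced members (Hspa1a, Hspa1b, Hspb1, Hsph1, Dnajb1, Hsp90aa1 and Cryab) and 3 constitutive members (Hspa8, Hspa5 and Hspd1). Heat shock factor 1 switches on the stress-induced genes when unfolded protein builds up in the cytosol, and the unfolded protein response switches on Hspa5 when it builds up in the endoplasmic reticulum (ER). In injured brain the small heat shock proteins are known mainly from reactive glia.

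Bulk RNA from the upper brain quadrant with the lesion from 24 males was sequenced at 5 dpi, each mouse giving 1 library. Traumatic brain injury (TBI) was made by controlled cortical impact over the right parietal cortex. The injured mice formed 4 groups of 5, treated with vehicle, with PLX3397, with Anakinra or with both (PLX3397+Anakinra). The 4 sham mice had anesthesia and a skin incision without craniotomy. PLX3397, a CSF1R inhibitor that depletes microglia, was given in chow at 290 mg/kg, and Anakinra, an antagonist of the interleukin-1 receptor, was injected at 100 mg/kg. Vehicle mice received control chow and saline. The labels name no genetic alteration and give the strain as C57BL6N and the age as 12 to 16 weeks, while the methods name the substrain C57BL/6JRj. The labels call the tissue cortex, whereas the methods describe cortex with striatum, dorsal hippocampus and thalamus, and the 4 striatal markers summed to 646 to 1140 TPM across the TBI libraries. All vehicle mice, and no others, carry the letter B in their identifiers, and if that letter marks a batch it cannot be told apart from vehicle treatment. In bulk tissue, more or fewer cells of a type and more or less RNA per cell cannot be told apart.

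The start regions of 7 of the 10 genes were found in RefSeq (GRCm38.p6). Hspa8, Cryab and Hsp90aa1 had no entry. The following stretches are examples that hold the letters that heat shock factors or the unfolded protein response are known to read. Hsph1 and the constitutive Hspd1 also hold heat shock repeats but are not printed. Those of Hspd1 overlap and begin 144, 139 and 134 bases before its start, so the repeat does not follow the class. Capitals mark the heat shock repeat GAANNTTC in the first 3 genes and the ER stress response element in Hspa5.
Hspa1a: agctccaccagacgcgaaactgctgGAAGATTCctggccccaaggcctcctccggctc
Hspa1b: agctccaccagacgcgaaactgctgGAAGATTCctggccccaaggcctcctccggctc
Hspb1: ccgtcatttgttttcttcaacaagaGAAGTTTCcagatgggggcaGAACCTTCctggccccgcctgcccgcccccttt
Hspa5: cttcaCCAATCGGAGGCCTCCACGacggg
The Hspa1a stretch lies at chr17:34972228-34972285 and that of Hspa1b at chr17:34959310-34959367, both on the minus strand. The Hspb1 stretch lies at chr5:135887777-135887854 and that of Hspa5 at chr2:34772020-34772048, both on the plus strand. The first 3 stretches overlap no annotated exon, and the last overlaps an exon of an Hspa5 transcript in GENCODE M21. The 250 bases before the starts of Hspa1a and Hspa1b were 98.8% identical. On either strand, which read the same for these repeats, GAANNTTC or its mirror form TTCNNGAA was present in the windows of Hspa1a, Hspa1b, Hspb1, Hsph1 and Hspd1, and in 15.1% of all 32851 windows of 300 bases. The ER element was in 0.119% of the windows, searched on both strands, and among the members in Hspa5 alone. Dnajb1 had neither form of the repeat in its windows, which says only that these letters are absent there.

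Levels spanned a wide range. Hspa8, the constitutive cytosolic HSP70 (gene chr9:40801276-40805202), stood highest at 2369 ± 192 TPM (SD, n = 4) in sham mice. Hsp90aa1, the inducible cytosolic HSP90, followed at 1196 ± 109 TPM in sham mice. Hspa5, Hsph1, Hspd1 and Cryab formed a middle tier with sham means of 248.6, 212, 207 and 188 TPM, and the sham ranges of Hspa5, Hsph1 and Hspd1 overlapped. Dnajb1 (52.7 TPM), Hspb1 (30.0), Hspa1a (18.3) and Hspa1b (13.6) were the lowest in sham mice. The sum of the 10 members was 4535 ± 367 TPM in sham and 4639 ± 248 TPM in vehicle mice. Levels of 6 members carry a further uncertainty, because stretches of 150 bases of their transcripts also occur in other genes: 39.7% of Hspa1a, mostly shared with Hspa1b, 40.5% of Hspa1b, 36.6% of Hspb1, 36.2% of Hsp90aa1, 55.4% of Hspa8 and 18.6% of Hspd1. Hsph1, Dnajb1, Cryab and Hspa5 shared none.

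**Figure D1:**
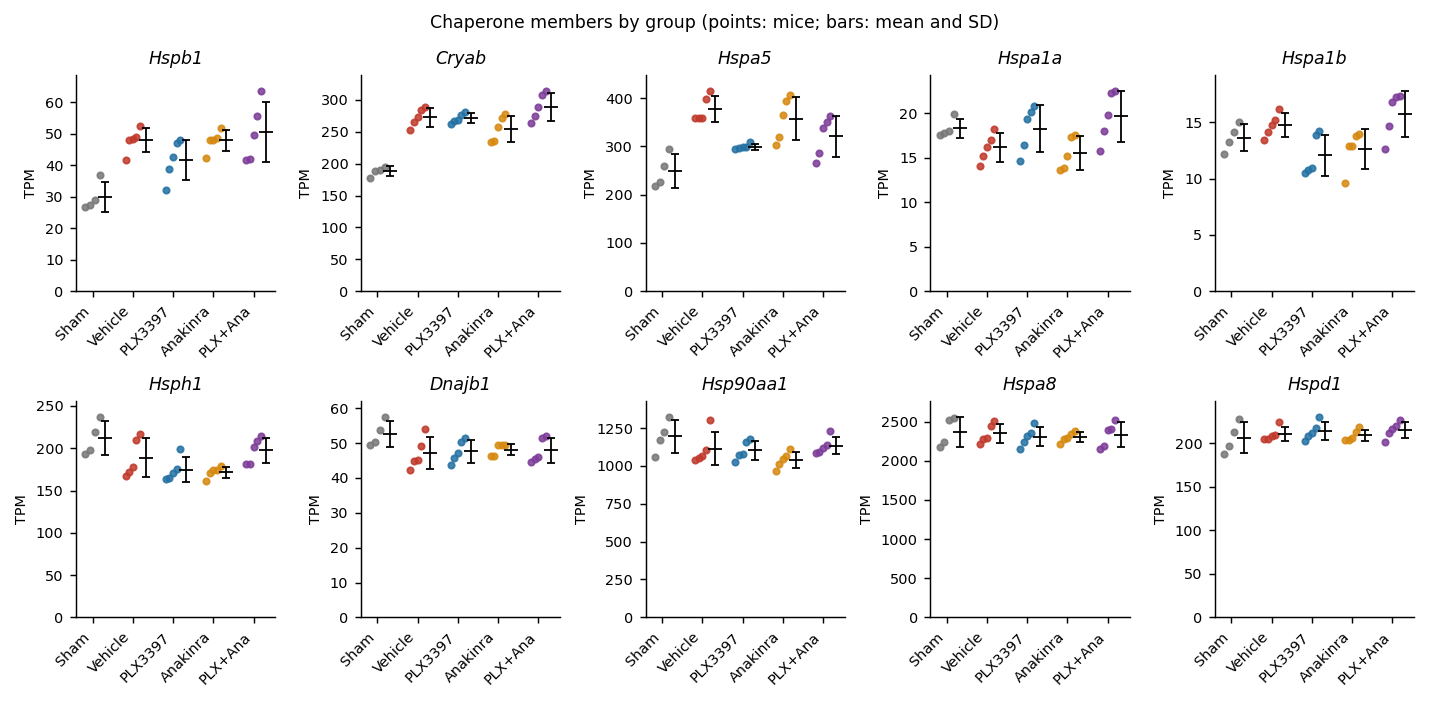
Level of each of the 10 members in TPM (vertical axes, from 0) in each mouse (points), by group (horizontal axis), with the group mean and SD as black bars (sham n = 4, other groups n = 5). Hspb1, Cryab and Hspa5 sit higher in vehicle than in sham mice without overlap, while Hspa8 and Hspd1 sit at like levels in every group.

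The comparison of vehicle with sham mice asked which chaperones differed after injury at 5 dpi. Hspb1, Cryab and Hspa5 rose, Dnajb1 fell slightly, and the other 6 members did not pass the test. A gene passed at an adjusted p below 0.05 in limma, with Benjamini-Hochberg adjustment over all 17267 genes tested. The 4 of 10 members that passed stand beside 54.3% of all genes (26.6% higher, 27.7% lower). The share of all genes whose values do not overlap between these groups was not counted. Of the 7 stress-induced members 2 rose and 1 fell, with a median log2 difference of -0.10 against -0.01 over all genes. Of the 3 constitutive members 1 rose (median 0.03). This was Hspa5, which is known as a target of the unfolded protein response although it is set among the constitutive members here. What raised it was not tested.

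Hspb1 encodes the small heat shock protein HSP25, which holds unfolded proteins and binds actin. It stood at 28.95, 26.75, 37.0 and 27.4 TPM in the sham mice. In the vehicle mice it stood at 48.0, 41.8, 49.2, 52.5 and 48.3 TPM. All vehicle mice were above all sham mice, and the log2 difference was 0.67 (SE 0.12, limma adjusted p = 3.58e-05). Cryab encodes alpha B-crystallin, a small heat shock protein of glia and muscle. It stood at 195.2, 177.5, 189.2 and 190.7 TPM in sham mice. In vehicle mice it stood at 252, 284, 266, 273 and 289.5 TPM. These groups did not overlap either, and the log2 difference was 0.53 (SE 0.06, limma adjusted p = 1.84e-08).

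Hspa5 encodes BiP, the HSP70 of the ER lumen. It stood at 217, 226, 294 and 258 TPM in sham mice. In vehicle mice it stood at 397, 358, 358, 415 and 358 TPM. The groups did not overlap, and the log2 difference was 0.61 (SE 0.09, limma adjusted p = 6.83e-06). Dnajb1, the HSP40 co-chaperone that loads clients onto HSP70, ranged from 49.4 to 57.5 TPM in sham and from 42.4 to 54.1 TPM in vehicle mice. Its groups overlapped, and the log2 difference was -0.16 (SE 0.07, limma adjusted p = 0.0412). This call was lost without vehicle J18B, J19B or J20B or sham J07 or J15 (adjusted p 0.0838 to 0.161). It was also lost without the low-level filter (0.0636), after median-ratio rescaling (0.0714), without the variance trend (0.0517) and with the compared groups alone (0.0787).

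**Figure D2:**
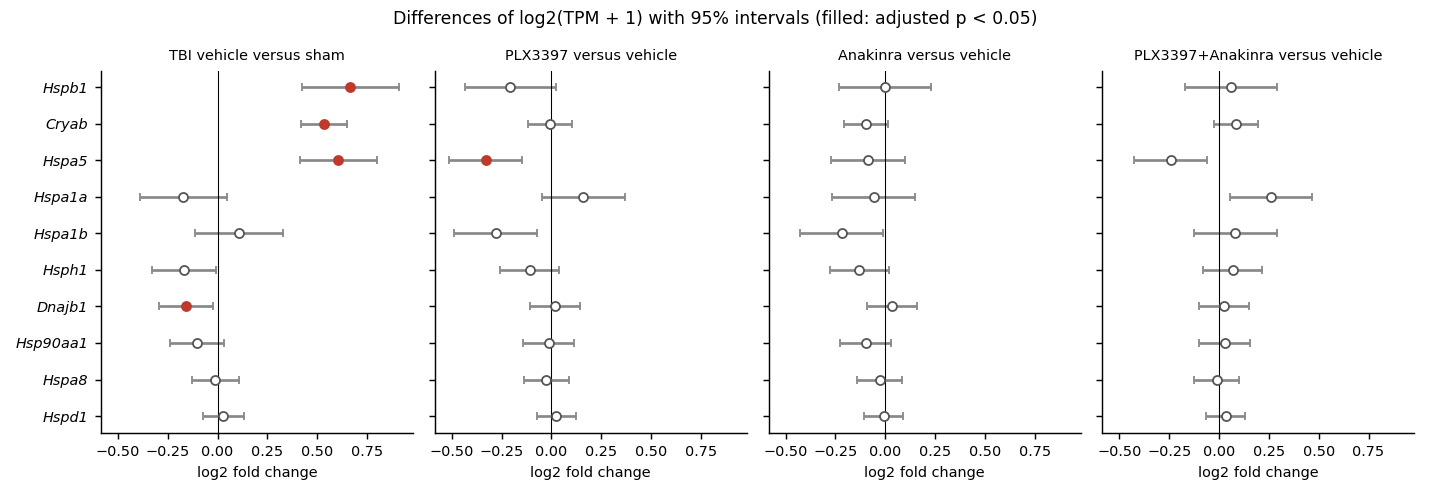
Difference of group means of log2(TPM + 1) (horizontal axes, log2) for each member (vertical axis) in 4 comparisons, with 95% confidence intervals as bars. Filled points passed limma at an adjusted p below 0.05, namely Hspb1, Cryab, Hspa5 and Dnajb1 in vehicle versus sham and Hspa5 in PLX3397 versus vehicle.

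The inducible HSP70 genes Hspa1a and Hspa1b encode nearly the same protein. Hspa1a stood at 19.9, 17.8, 17.99 and 17.5 TPM in sham and at 17.02, 16.2, 15.2, 18.3 and 14.1 TPM in vehicle mice, with overlapping groups and a log2 difference of -0.17 (limma adjusted p = 0.181). Hspa1b stood at 14.1, 13.2, 15.01 and 12.2 TPM in sham and at 14.2, 14.8, 13.5, 16.2 and 15.25 TPM in vehicle mice, with a log2 difference of 0.11 (limma adjusted p = 0.412). Neither passed, and their estimates had opposite signs. As reads can be split between the paralogs, their TPM values were summed, which gave 31.9 ± 1.91 TPM (n = 4) in sham and 30.95 ± 2.22 TPM (n = 5) in vehicle mice. The difference of -1.003 TPM had p = 0.492 in an exact two-sided permutation test over mice, whose smallest possible p was 0.00794.

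Hsph1, an HSP110 that recharges HSP70, had a log2 difference of -0.17 (limma adjusted p = 0.0672). It passed without vehicle J01B (adjusted p = 0.0288), vehicle J17B (0.0154) or sham J07 (0.036). Hsp90aa1 stood at -0.10 (adjusted p = 0.195) and passed only in the fit without vehicle J17B (adjusted p = 0.0249), whose 1304 TPM lay apart from the other vehicle mice. For Hspa8 the 95% interval of the log2 difference ran from -0.13 to 0.11, and for Hspd1, the chaperonin HSP60 of mitochondria, from -0.07 to 0.13.

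Cell type markers also moved between sham and vehicle mice. All 6 astrocyte markers were found, and their summed level ran from 1182 to 1289 TPM in sham and from 3087 to 4169 TPM in vehicle mice. The 6 oligodendrocyte markers ran from 4632 to 4983 TPM in sham and from 5926 to 6517 TPM in vehicle mice. The 8 neuron markers ran from 6154 to 6489 TPM in sham and from 3750 to 4614 TPM in vehicle mice, and the 8 markers of microglia and macrophages ran from 188 to 191 TPM and from 754 to 1022 TPM. The 4 fibroblast markers ran from 29.5 to 32.5 TPM in sham and from 64.4 to 448 TPM in vehicle mice. Summed endothelial markers (122 to 136 and 145 to 189 TPM) and mural cell markers (129 to 135 and 136 to 226 TPM) also did not overlap between these groups. The sums do not hold for every marker. Mural Myh11 fell, from 7.35 to 10.36 TPM in sham to 5.98 to 6.84 TPM in vehicle mice. Endothelial Flt1 averaged 24.45 and 23.09 TPM, neuronal Gad2 90.8 and 90.0 TPM, and oligodendrocyte Mobp 572.6 and 592.9 TPM. The means of the other markers of these lists moved with their sums. Not all of those markers separated the groups, as mural Acta2 ran from 20.81 to 24.81 TPM in sham and from 19.71 to 51.62 TPM in vehicle mice. Gfap had the largest change of the astrocyte markers, with means of 115 and 1945 TPM. No marker averaged under 0.5 TPM. Their part in the levels of Hspb1, Cryab, Hspa5 and the partner genes was not tested.

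Partners of the small heat shock proteins were described from lists that hold no member. Of 5 other genes tested that carry an Hspb symbol 3 rose after TBI and 0 fell, beside 26.6% of all genes higher and 27.7% lower. The symbol alone does not show that each works as a small heat shock protein. Hspb6 rose from 8.99 ± 0.99 TPM (n = 4) to 36.2 ± 7.20 TPM (n = 5), a log2 difference of 1.88 (SE 0.13, limma adjusted p = 5.63e-12). Hspb8 rose from 20.6 ± 1.75 to 53.0 ± 8.19 TPM (log2 difference 1.31, limma adjusted p = 3.12e-11). Hspb11 rose less, from 4.14 ± 0.53 to 5.23 ± 0.36 TPM (log2 difference 0.28, limma adjusted p = 0.00492). Bag3, the co-chaperone that joins HSPB8 and HSP70 in selective autophagy, rose from 8.71 ± 0.72 to 19.4 ± 2.03 TPM (log2 difference 1.07, limma adjusted p = 1.27e-09). No sham mouse overlapped a vehicle mouse for Hspb6, Hspb8 and Bag3, which were picked for their large differences. The share of all genes without such overlap was not counted. Bag3 was the 1 of 9 heat shock factor and BAG genes that rose, whereas 6 fell (27.7% of all genes fell), among them Hsf1 (-0.19), the master heat shock factor, and Hsf4 (-0.58).

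The ER chaperone and unfolded protein response list held 22 genes, some of whose products work in the ER as BiP does while others are transcription factors. Of these 15 rose and 3 fell, beside 26.6% of all genes higher and 27.7% lower, with a median log2 difference of 0.43 against -0.01 over all genes. Serpinh1, the collagen chaperone HSP47, rose by 1.91 on the log2 scale (limma adjusted p = 3.55e-06) with a wide spread, from 23.1 ± 2.20 to 101.1 ± 52.4 TPM. Pdia4, a disulfide isomerase, rose by 0.99 (limma adjusted p = 1.56e-09). Sdf2l1, a partner of BiP, rose by 0.92 (limma adjusted p = 3.31e-08). The 3 that fell were the transcription factors Atf4 (-0.18) and Atf6 (-0.25) and Herpud1 (-0.29), which serves ER-associated degradation. Xbp1 (0.06, adjusted p = 0.47) and Dnajb9 (0.09, adjusted p = 0.116) did not pass.

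PLX3397 was compared with vehicle to ask which chaperones differed with this drug after injury. Hspa5 fell, and the other 9 members did not pass, beside 9.89% of all genes (6.66% lower, 3.23% higher). Hspa5 stood at 298, 299, 297, 293 and 309.7 TPM in PLX3397 mice, all below the vehicle mice. The log2 difference was -0.33 (SE 0.09, limma adjusted p = 0.0179). How many of all genes separate these groups in this way was not counted. Hspa5 was still higher than in sham mice, by 0.28 on the log2 scale (limma adjusted p = 0.0192). The vehicle mice serve in both the comparison with sham and that with PLX3397, so the 2 values of Hspa5 are not independent. The fall lost its call without vehicle J19B, the highest vehicle mouse (adjusted p = 0.0591), and the difference from sham lost its call without sham J07 (0.0898) or J08 (0.0714).

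Of the 22 ER genes 6 were down-regulated in PLX3397 mice and 0 rose, beside 6.66% of all genes lower and 3.23% higher, with a median of -0.12 against 0.01 over all genes. Sdf2l1 fell by 0.67 on the log2 scale (limma adjusted p = 2.28e-05), from 48.4 ± 6.56 to 30.1 ± 3.90 TPM. Its groups did not overlap, and the share of all genes without overlap was not counted. Creld2 (-0.34), Manf (-0.31), Pdia3 (-0.22), Calr (-0.22) and Hsp90b1 (-0.20) were the others. These are folding enzymes or ER resident factors, and Hsp90b1 is the HSP90 of the ER. Serpinh1 stood at 0.73 above vehicle (limma adjusted p = 0.0878). With PLX3397+Anakinra 2 of the 22 genes were higher than in vehicle mice and 3 lower, beside 7.88% and 9.6% of all genes. Serpinh1 rose by 0.86 (limma adjusted p = 0.0265) and Herpud1 by 0.21, and Sdf2l1 fell by 0.50 (limma adjusted p = 0.000476), Manf by 0.21 and Pdia3 by 0.18 on the log2 scale.

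**Figure D3:**
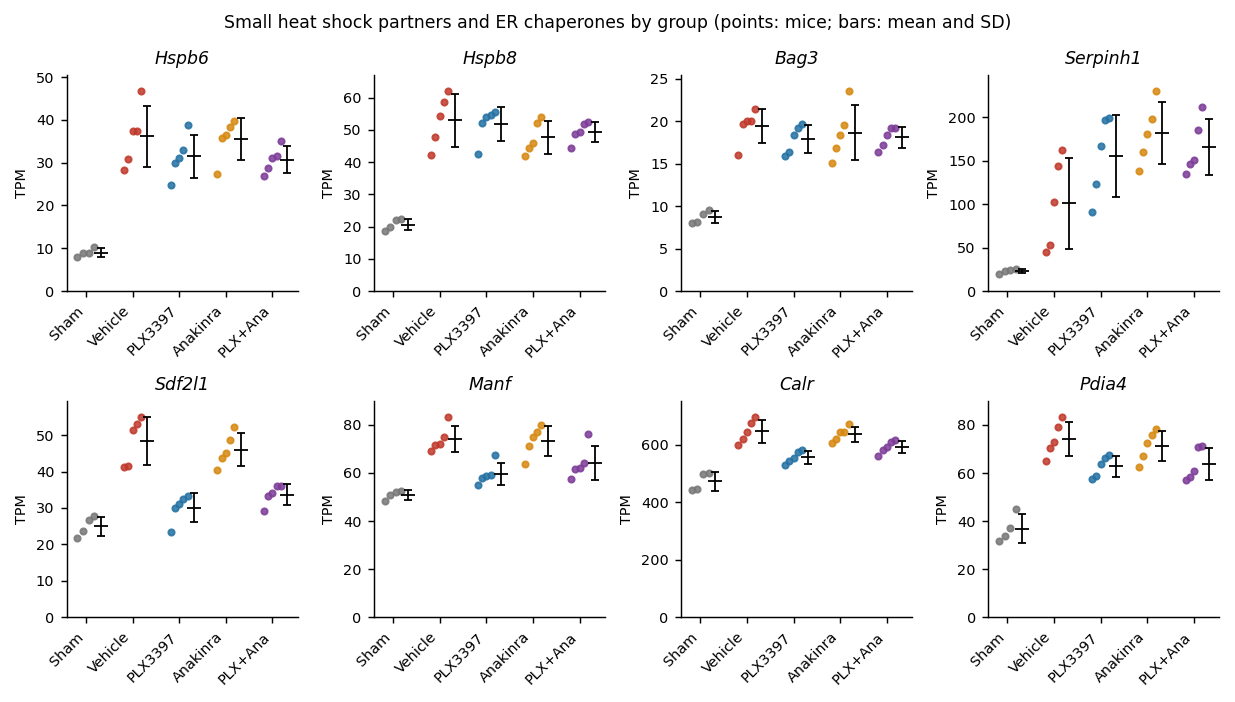
Level in TPM (vertical axes, from 0) of 8 partner genes in each mouse (points) by group, with the group mean and SD as black bars (sham n = 4, other groups n = 5). Hspb6, Hspb8 and Bag3 are higher in every TBI group than in sham, and Sdf2l1 is lower in PLX3397 mice (23.5 to 33.4 TPM) than in vehicle mice (41.1 to 54.9 TPM).

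Summed markers of microglia and macrophages ran from 340 to 517 TPM in PLX3397 mice, below all vehicle mice. Markers of red blood cells ran from 606 to 1072 TPM against 1507 to 4406 TPM in vehicle mice, and the 4 fibroblast markers ran from 310.1 to 745 TPM against 64.4 to 448 TPM. Their part in the level of Hspa5 was not tested. Hspa1b stood at 10.9, 14.2, 13.9, 10.8 and 10.5 TPM in PLX3397 mice, a log2 difference from vehicle of -0.28 (limma adjusted p = 0.0817), while Hspa1a stood at 20.2, 19.3, 20.9, 14.6 and 16.4 TPM, a difference of 0.16 (limma adjusted p = 0.369). Hspa1b passed without PLX3397 J02 (adjusted p = 0.0371) or Anakinra J14 (0.0473), and in the 6 libraries whose identifier numbers the groups share, where its log2 difference was -0.46 (adjusted p = 0.0146).

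Anakinra changed no member relative to vehicle in limma, beside 0.116% of all genes (0.0695% higher, 0.0463% lower). At an unadjusted p below 0.05 there was 1 member, Hspa1b, with a log2 difference of -0.22 (limma adjusted p = 0.372). Hspa5 in Anakinra mice stood at 364, 319, 303, 405 and 393 TPM, overlapping the vehicle mice, with a log2 difference of -0.09 and a 95% interval from -0.27 to 0.10. Cryab differed by -0.10 (adjusted p = 0.46), and Hspb1 by 0.00 with an interval from -0.23 to 0.23.

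PLX3397+Anakinra also gave 0 calls among the members against vehicle in limma, beside 17.5% of all genes (7.88% higher, 9.6% lower), and 2 members at an unadjusted p below 0.05. These were Hspa1a, at 0.26 (limma adjusted p = 0.0759), and Hspa5, at -0.24 (limma adjusted p = 0.0629). Hspa5 stood at 350, 363, 287, 265 and 337 TPM, overlapping both vehicle and PLX3397 mice. It passed without PLX3397+Anakinra J03 (adjusted p = 0.0458) or J04 (0.0325) or sham J15 (0.0463), and also after rescaling the libraries by their median ratio (0.0449). Hspa1a passed without J03 (adjusted p = 0.0211). All 7 stress-induced members had positive estimates (median 0.07, against 0.01 over all genes), beside 54.2% of all genes, and of the 3 constitutive members 1 had. None of the 7 passed, and the estimates of 3 of them (Hspb1, Dnajb1 and Hsp90aa1) turned negative under an alternative.

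Against Anakinra alone, PLX3397+Anakinra mice had higher Hspa1a, Hspa1b and Cryab, 3 of 10 members beside 12.8% of all genes (4.67% higher, 8.1% lower). Hspa1a stood at 15.7, 19.9, 22.3, 22.5 and 17.98 TPM with both drugs and at 17.6, 13.85, 13.6, 15.2 and 17.4 TPM with Anakinra. Its groups overlapped, and the log2 difference was 0.32 (SE 0.10, limma adjusted p = 0.0369). Hspa1b stood at 12.6, 17.3, 17.4, 16.85 and 14.7 TPM with both drugs and at 13.95, 12.9, 9.59, 13.8 and 12.9 TPM with Anakinra, a log2 difference of 0.30 (SE 0.10, limma adjusted p = 0.0491).

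Cryab stood at 315, 307, 274, 288 and 263 TPM with both drugs and at 278, 271, 233, 258 and 235 TPM with Anakinra, a log2 difference of 0.18 (SE 0.05, limma adjusted p = 0.0244). After rescaling by the median ratio none of these 3 passed, with adjusted p of 0.0678, 0.0908 and 0.105. With the compared groups alone none of them passed either (limma adjusted p of 0.0528, 0.0762 and 0.0697). Hspa1a lost its call without Anakinra J06, J14 or J21 or PLX3397+Anakinra J04, J09 or J10, Cryab without J14, J22, J03 or J04, and Hspa1b in 22 of 31 alternatives. Hsph1 did not pass (0.20, limma adjusted p = 0.073), though its ranges, 181.5 to 214 TPM with both drugs and 161 to 179 TPM with Anakinra, did not overlap. It passed with the compared groups alone (limma adjusted p = 0.0224) and only just without vehicle J17B. How many of all genes separate these groups was not counted. Microglial markers ran from 298 to 383 TPM with both drugs and from 844 to 963 TPM with Anakinra, neuron markers from 4654 to 4926 TPM and from 3988 to 4411 TPM, and their part was not tested.

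**Figure D4:**
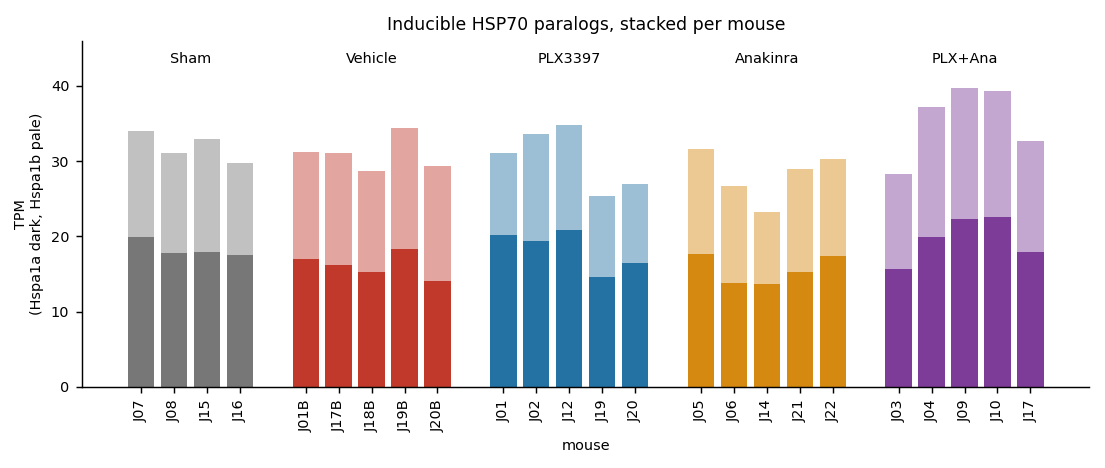
Stacked bars of Hspa1a (dark) and Hspa1b (pale) in TPM (vertical axis, from 0) for each mouse (horizontal axis), by group. The summed level ranged from 28.3 to 39.7 TPM with PLX3397+Anakinra and from 28.7 to 34.4 TPM with vehicle, and the groups overlap.

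The summed Hspa1a and Hspa1b level was 35.4 ± 4.85 TPM (n = 5) with PLX3397+Anakinra, 4.50 TPM above vehicle, with p = 0.103 in an exact two-sided permutation test. Without PLX3397+Anakinra J03 the difference was 6.27 TPM (exact p = 0.0238). PLX3397+Anakinra against PLX3397 gave 0 calls among the members in limma, beside 0.151% of all genes (0.00579% higher, 0.145% lower), and 3 at an unadjusted p below 0.05 (Hspa1b, Hspb1 and Hsph1). The interaction of the drugs also gave 0 calls among the members and 0% of all genes, with 3 members at an unadjusted p below 0.05. Hspa1b had the smallest of these, with a log2 interaction of 0.58 (SE 0.14, limma adjusted p = 0.314).

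Compared with sham, Hspb1, Cryab and Hspa5 were higher in each of the 3 drug groups as well. The members called were 4 of 10 with PLX3397 (45.2% of all genes, 22.7% higher and 22.5% lower). They were 5 with Anakinra (54.4%, 25.1% higher and 29.2% lower) and 3 with PLX3397+Anakinra (38.8%, 20.7% higher and 18.1% lower). The sham mice serve in all of these comparisons. Hsph1 was lower than sham with PLX3397 (-0.28, limma adjusted p = 0.00455) and with Anakinra (-0.30, limma adjusted p = 0.00202), and stood at -0.10 with PLX3397+Anakinra (adjusted p = 0.324). Hsp90aa1 was lower with Anakinra (-0.20, limma adjusted p = 0.0127), a call lost without sham J15 (adjusted p = 0.0721). Calls gained when 1 mouse was left out were Hsp90aa1 with PLX3397 (without sham J07, adjusted p = 0.0444), Dnajb1 with PLX3397 (without J12, 0.044) and Hspa1a with Anakinra (without J05, 0.0427, or J22, 0.0448). In limma's F-test over the 5 groups 6 of 10 members passed, beside 51.9% of all genes. Dnajb1, Hsp90aa1, Hspa8 and Hspd1 did not (adjusted p of 0.224, 0.121, 0.963 and 0.761).

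Genes that varied most like 4 of the members from mouse to mouse were ranked by Pearson's r of the deviations from group means over the 24 libraries, among 12513 genes, as a description. For Hspa5 they were Tra2a (0.84), Dnajc3 (0.83) and Pdia4 (0.83), the last 2 of which are ER chaperones on the list above. For Cryab they were Mdm1 (0.78), Tceb2 (0.75) and Mbp (0.73), a myelin gene. For Hspa1a they were Fndc4 (0.82), Lonp1 (0.79) and Inppl1 (0.77), and for Hspb1 St6galnac2 (0.78), Kif19a (0.71) and Kdm1b (0.70). The libraries share tissue composition, and TPM values within a library share 1 total.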

How the data were processed

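Reads had been aligned by the authors to the mm10 genome with CLC Genomics Workbench. They deposited TPM values, which are scaled by gene length and library total. The methods add that the software calls this unit CPM, which would not be scaled by length. The 1000 lowest values above 0 of a library took 868 to 908 distinct values, so 1 read is worth a different amount from gene to gene, as in TPM. The full table was used. A filtered table with p-values and F values of tests by the authors was not used. A rounded copy served only as an alternative to check the results. Read counts were not used here, so the depth is unknown and precision rests on the spread between mice. A gene with reads from near-identical copies may be misassigned, which could move the levels of the members named for this.

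Genes averaging 0.5 TPM or more were tested, 17267 in all. One model with a mean per group was fitted to log2(TPM + 1) for all 24 libraries in limma 3.58.1 under R 4.3.3, with a trend of the variance on expression. Fold changes are on this scale and understate those of low genes. Contrasts were adjusted by Benjamini-Hochberg over all genes tested. Scripts were tested on simulated data. Separate mice are the replicates.

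Members and gene lists were chosen with earlier results of these data known. Of each further list, genes with the largest called differences were picked in vehicle versus sham (up to 3) and PLX3397+Anakinra versus vehicle (up to 2). Bag6, Cct4 and Cct7 were picked by this rule but are not described. Others named in the ER, BAG and small heat shock lists were chosen after their values were seen. Gene starts and coordinates came from RefSeq GRCm38.p6, and shared stretches from GENCODE M21. Alternatives were another pseudocount, other filters, median-ratio rescaling, the rounded copy, no variance trend, the compared groups alone, a replicate block and leaving out each mouse.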

Additional observations from a re-analysis of the deposited data

Results flagged for a closer look

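Of 50 sets of values, each a member in a group, 3 held a mouse whose gap to the nearest other exceeded Dixon's 95% critical value, and chance flags about 1 in 20 groups. Hspa1b in Anakinra mouse J14 was the lowest at 9.59 TPM, with the others at 12.9 to 13.95 TPM. Hsp90aa1 in vehicle mouse J17B was the highest at 1304 TPM, with the others at 1042 to 1104 TPM. Hspd1 was the highest in the same mouse, at 224.8 TPM, with the others at 205 to 209 TPM.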

How the results depend on the processing

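Against the reported settings, 3110 values of single members were recomputed. Of these 3040 kept their direction and side of the threshold, 50 lost and 20 gained a call, and 0 called values turned sign, while 70 values that had not passed did. Many of these fits left out a mouse outside the compared groups, where the difference itself cannot change. The rounded copy holds the same data, so the 3040 overstate how stable the values are. Among members, PLX3397+Anakinra versus Anakinra gave 3 calls as reported, 1 without the filter (Cryab) and 0 after median-ratio rescaling. With the compared groups alone it gave 1 call, Hsph1, which is not among those 3. When a mouse was left out it gave 0 to 3. PLX3397+Anakinra versus vehicle gave 0 calls, 1 after rescaling and 0 to 2 when a mouse was left out. PLX3397 versus vehicle gave 1 call and 0 to 2 when a mouse was left out. Leaving out a mouse gave 3 to 6 calls in vehicle versus sham, 3 to 5 in PLX3397 versus sham and 4 to 6 in Anakinra versus sham. The summed Hspa1a and Hspa1b difference of PLX3397+Anakinra from vehicle ran from 3.44 to 6.27 TPM. Over all genes, Anakinra versus vehicle gave 20 calls, and 1 to 66 when a mouse was left out. PLX3397+Anakinra versus PLX3397 gave 26 calls and 11 to 78, and the interaction 0 calls and 0 to 9.

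Vehicle and PLX3397 mice share 3 identifier numbers. With the replicate block on these 6 libraries 2 members passed, Hspa5 and Hspa1b (log2 difference -0.46, limma adjusted p = 0.0349), and both also passed in the same libraries without the block. The correlations of deviations of same-numbered mice were 0.17, -0.13 and -0.07. They cannot decide whether the numbers pair the mice, since paired mice need not deviate together. Depth is unknown, so low levels such as those of Hspa1b cannot be given a counting error, and 4 or 5 mice a group limit what small differences can pass.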

Other observations

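The other chaperone families held genes that moved in both directions after TBI. Of 13 HSP90 family and co-chaperone genes 2 rose and 6 fell in vehicle versus sham, with Hsp90b1 at 0.41, the ubiquitin ligase Stub1 at -0.28 and the immunophilin Fkbp4 at -0.22 on the log2 scale. Of 10 other HSP70 and HSP110 genes 1 rose and 4 fell, with Hspa12a at -0.65, Hspa1l at -0.57 and Hspa4l at -0.24. Of 19 J-domain genes 3 rose and 8 fell, with Dnajb13 at 0.54, Dnajc3 at 0.44 and Dnajc6, an auxilin of clathrin uncoating, at -0.50. Of 9 chaperonin genes 3 rose and 1 fell, all by small amounts such as 0.19 for Hspe1, the HSP10 partner of Hspd1. These counts stand beside 26.6% of all genes higher and 27.7% lower. The lists overlap, since Hsp90b1, Dnajc3, Dnajb9, Dnajb11 and Hyou1 are counted among the 22 ER genes too.

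With PLX3397+Anakinra, 4 of 13 HSP90 family and co-chaperone genes, 2 of 10 other HSP70 and HSP110 genes, 1 of 19 J-domain genes and 1 of 9 heat shock factor and BAG genes were higher than in vehicle mice and 0 were lower, beside 7.88% of all genes higher and 9.6% lower. The same vehicle mice serve in this comparison and in that with sham, so a low vehicle value would enter both. Hspa12a stood at 109 ± 4.12 TPM against 89.9 ± 5.14 TPM in vehicle mice (n = 5 each) and 141 ± 4.12 TPM in sham mice (n = 4), a log2 difference from vehicle of 0.28 (limma adjusted p = 1.59e-05). Hspa1l (0.30), Hsf4 (0.23), Dnajc6 (0.19), Stub1 (0.13) and Fkbp4 (0.13) were also higher than in vehicle mice. Neuron markers summed to 3750 to 4614 TPM in vehicle and 4654 to 4926 TPM in PLX3397+Anakinra mice, and their part in these genes was not tested.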
